A study of Homo sapiens with 3 samples.

Results

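The nuclear lamina and the LINC complex (linker of nucleoskeleton and cytoskeleton) were read through 10 genes, LMNA, LMNB1, LMNB2, LBR, EMD, TMPO, SUN1, SUN2, SYNE1 and SYNE2, out of 43299 gene names on the array. These genes were chosen by name for their place in the nuclear envelope, at a time when their differences between each knockdown and NC on these same arrays were known, so all folds against NC are given as a description with no test. Every transcript probe bearing one of the names was taken, 19 probes in all, of which 17 were well above background on all 3 arrays.

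The study asked how the arginine methyltransferase PRMT1 and the chromatin remodeler SMARCA4 act in colorectal cancer cells. HCT116, an established human colorectal cancer line grown in McCOY's 5A medium with serum, was transfected with small interfering RNA against SMARCA4 by Lipofectamine 3000, giving SMARCA4-KD1 and SMARCA4-KD2 cells, and NC cells were the control, for which the labels give no sequence. Total RNA of each was hybridized in 1 colour (Cy3) to 1 array per condition. No condition had a replicate, and precision is limited by the number of arrays. Both knockdown arrays sat on 1 slide and were scanned together, while NC sat on another slide with a scan of its own, so slide and knockdown cannot be told apart.

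The lamina is a meshwork of intermediate filament proteins under the inner nuclear membrane, built from A-type lamins (lamin A and lamin C, splice forms of LMNA) and B-type lamins. Inner membrane proteins such as LBR, emerin and the LAP2 proteins bind lamins and chromatin, and SUN proteins join across the perinuclear space to nesprins in the outer membrane, which hold actin filaments, microtubule motors and intermediate filaments. In many cell types the ratio of A-type to B-type lamins is known to bear on nuclear stiffness, and nuclei with less lamin A/C deform more easily.

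The labels name SMARCA4 in the sample titles and the protocol text, whereas the treatment field reads PRMT1, so both genes were read first. The labels give 1 strand of each of 2 siRNAs and do not say which one, or which mixture, made which knockdown; the first is shown since it helps define the perturbation, with bases 2 to 8 of the strand as given in capitals.
SMARCA4 siRNA 1: uCGCUUUGguucgcaaauc
The SMARCA4 probe (A_23_P39034, chr19:11172673-11172732, build hg19) had a processed signal of 3960.2 for SMARCA4-KD1, 4129 for SMARCA4-KD2 and 14026 for NC. After division of each array by its 75th percentile (intensities of 237, 228 and 223 in the same order), SMARCA4 stood below NC by a factor of 3.75 in SMARCA4-KD1 cells and of 3.47 in SMARCA4-KD2 cells. The PRMT1 probe read 9801, 10147 and 7683, with log2 fold changes of 0.27 and 0.37. The transcript reduced on the knockdown arrays was thus SMARCA4, not PRMT1.

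Cell identity was read from markers. Of 8 epithelial genes, 6 were well above background on all arrays, led by keratin gene KRT19 at 212000 for SMARCA4-KD1, 218000 for SMARCA4-KD2 and 203000 for NC, and the summed signal of the epithelial probes was 428800, 418900 and 398400. VIL1 and LGALS4 were not above background on any array. The fibroblast probes summed to 499.6, 409.7 and 377.3, nearly all of it from COL1A1, with 4 of 5 genes (COL1A2, DCN, LUM and PDGFRB) not above background on any array. Of the leukocyte genes, CD14 read 54.4, 45.8 and 53.2, CD3E was not above background on any array, and CD68 had no probe under that name. Endothelial probes summed to 110.8, 141.3 and 118.4 over 3 genes, with PECAM1 not above background and CDH5 at 46.0, 61.2 and 36.9. The VWF probes detected on 1 array or more read 27.9, 52.0 and 24.1, and 23.1, 14.8 and 40.9. They went opposite ways in both knockdowns, with log2 fold changes of 0.13 and 1.08, and of -0.91 and -1.36. The value of 14.8, for SMARCA4-KD2, was not well above background, so -1.36 is a limit. Apart from COL1A1, markers of other cell types were thus dim or at background, while EPCAM and the brightest probe of each keratin gene were bright. Signals of different probes are not comparable, so no share of cells is read from these levels or sums. The part of other cells in the results was not tested.

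Among the 17 detected probes, 7 were at least 1.5-fold lower in SMARCA4-KD1 than in NC, where 12% of the 29335 probes detected (well above background) on 1 array or more were, and 0 were at least 1.5-fold higher, against 11.5% of all. In SMARCA4-KD2, 6 were at least 1.5-fold lower, against 9.83% of all probes, and 0 were at least 1.5-fold higher, against 10.2%. With the brightest probe of each of the 10 genes, 2 passed 1.5-fold on the lower side for SMARCA4-KD1, against 12.2% of all 22621 genes. For SMARCA4-KD2 1 did, against 9.77%, and 0 did for both, against 1816 of the 22621 genes. LMNA alone gave 3 of the 17 probes. Nothing is read from these shares, since the contrast was known when the genes were proposed. The median log2 fold change of the 17 probes was -0.51 for SMARCA4-KD1 and -0.45 for SMARCA4-KD2, beside 0.00 and 0.02 over all probes. The comparisons share the NC array, so their values stand side by side and one is no repeat of the other. With bulk RNA, fewer cells expressing a gene and less RNA per cell cannot be told apart.

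**Figure D1:**
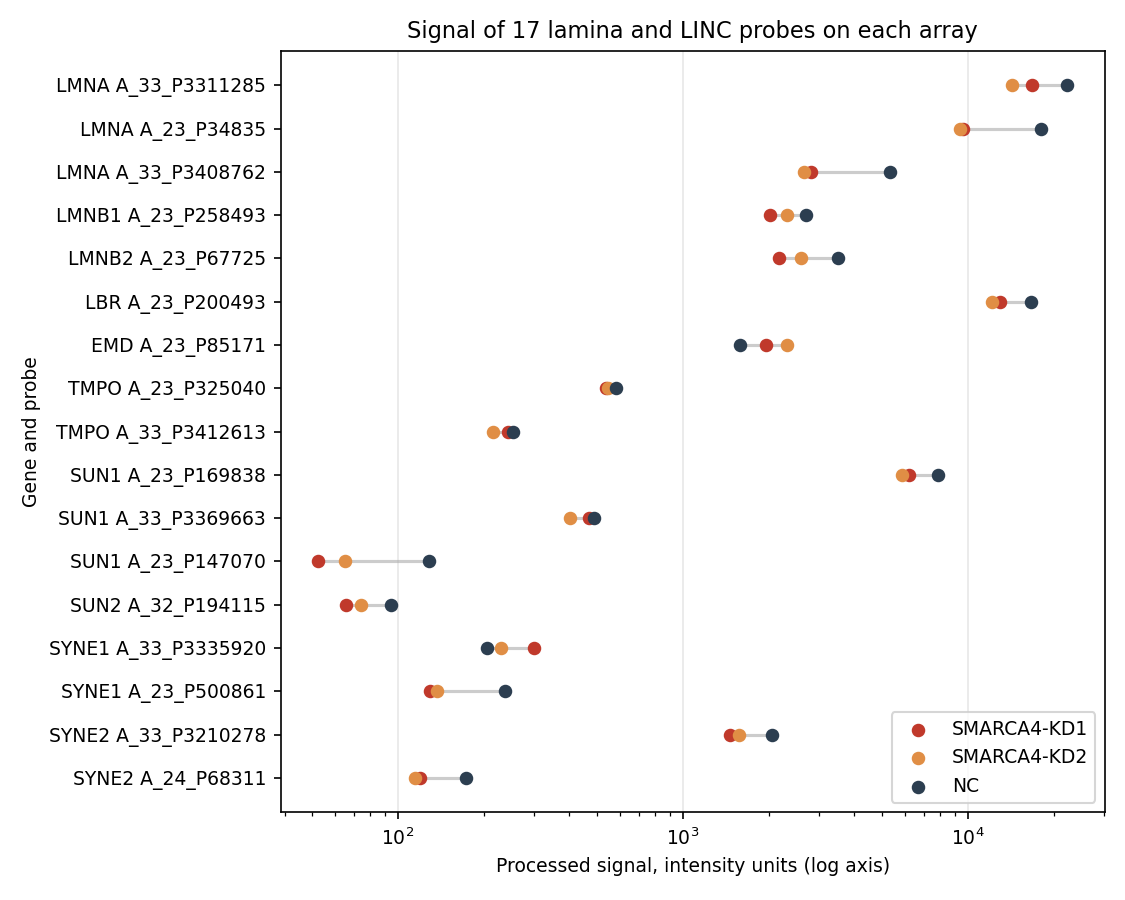
Processed signal (intensity units, log axis) of the 17 detected probes, 1 row per probe and 1 point per array joined by a grey line; signals of different probes are not comparable. The NC point lies to the right of both knockdown points for all probes but EMD A_23_P85171 and SYNE1 A_33_P3335920, where it lies to the left.

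LMNA, which encodes lamin A and lamin C, had 3 probes. A_23_P34835 and A_33_P3408762 list the lamin C transcript among their targets and were read as shared by lamin A and lamin C. A_33_P3311285 (chr1:156109774-156109833) lists lamin A transcripts and was read as the 3′ end of the lamin A messenger, which lamin C lacks. Such placements, here and for SUN1, TMPO, SYNE1 and SYNE2, rest on the accessions listed in the array files and on general knowledge of the genes, since exon and UTR positions were not computed. The first shared probe had a signal of 9650.5 for SMARCA4-KD1, 9365 for SMARCA4-KD2 and 18113 for NC, and the other read 2821, 2654 and 5317. The knockdown arrays lay close together and NC lay above both. The log2 fold changes were -0.99 and -0.98 for the first probe and -1.0 and -1.03 for the other, each ± 0.20, an error derived from the signal errors that the extraction software gives, which covers no difference between cultures, that is 1.99-fold and 1.98-fold lower, and 2.0-fold and 2.05-fold lower.

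The lamin A 3′ probe had a signal of 16780 for SMARCA4-KD1, 14304 for SMARCA4-KD2 and 22358 for NC, which gave log2 fold changes of -0.50 and -0.68, 1.41-fold and 1.60-fold lower. It was the LMNA probe nearest to NC in both knockdowns. Its log2 fold change exceeded that of the first shared probe by 0.49 ± 0.29 for SMARCA4-KD1 and 0.31 ± 0.29 for SMARCA4-KD2, and that of the other by 0.50 ± 0.29 and 0.36 ± 0.29. Whether lamin C was more reduced than lamin A was not tested. The spread over the 3 LMNA probes, 0.50 and 0.36, was as wide or wider in 27.0% and 38.3% of the 4408 named genes with more than 1 probe well above background on all arrays, whose median ranges were 0.26 in both knockdowns.

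The B-type lamins had 1 probe each. LMNB1 (A_23_P258493, chr5:126172483-126172542), which encodes lamin B1, had a signal of 2025 for SMARCA4-KD1, 2322 for SMARCA4-KD2 and 2712 for NC. Its log2 fold changes were -0.51 and -0.26, short of 1.5-fold in both. LMNB2 (A_23_P67725, chr19:2428183-2428242), which encodes lamin B2, read 2174, 2608 and 3513, with log2 fold changes of -0.78 and -0.46. LMNB2 was thus past 1.5-fold in SMARCA4-KD1 (1.71-fold lower) but not in SMARCA4-KD2 (1.38-fold lower), and for both genes SMARCA4-KD2 lay between SMARCA4-KD1 and NC.

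Within the same arrays, the first shared LMNA probe had a log2 fold change below that of LMNB1 by a difference of -0.49 ± 0.29 for SMARCA4-KD1 and -0.73 ± 0.29 for SMARCA4-KD2. Against LMNB2 the difference was -0.22 ± 0.29 and -0.52 ± 0.29. The other shared probe gave -0.49 ± 0.29 and -0.78 ± 0.29 against LMNB1, and -0.22 ± 0.29 and -0.57 ± 0.29 against LMNB2. Set against LMNB1, the lamin A 3′ probe gave 0.01 ± 0.29 and -0.42 ± 0.29, and against LMNB2 0.28 ± 0.29 and -0.21 ± 0.29, less reduced than LMNB2 in SMARCA4-KD1 and more in SMARCA4-KD2. These pairs were chosen with the folds known, and no weight is put on a difference by its error. These differences do not depend on the factor that scales an array.

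No probe of LBR, EMD or TMPO, which encode proteins of the inner nuclear membrane, reached 1.5-fold in either knockdown. LBR (A_23_P200493, chr1:225589282-225589341), the lamin B receptor, which tethers heterochromatin and also has sterol reductase activity, had a signal of 13020.1 for SMARCA4-KD1, 12206 for SMARCA4-KD2 and 16628 for NC. Its log2 fold changes were -0.44 and -0.48. NC was highest and neither knockdown reached 1.5-fold (1.35-fold and 1.39-fold lower).

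EMD (A_23_P85171, chrX:153609536-153609595) encodes emerin, a LEM domain protein that binds lamins and the chromatin protein BAF. Its signal was 1951 for SMARCA4-KD1, 2324 for SMARCA4-KD2 and 1592 for NC. EMD was the member gene with a single probe for which NC was lowest, with log2 fold changes of 0.21 and 0.51, 1.16-fold and 1.43-fold higher.

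TMPO encodes the LAP2 proteins, of which the alpha form is soluble in the nucleoplasm with A-type lamins and others sit in the inner membrane. The probe listed for transcript variant 1, the alpha form (A_23_P325040, chr12:98928260-98928319), read 538.6 for SMARCA4-KD1, 545.8 for SMARCA4-KD2 and 583.2 for NC. The probe listed for variant 2 (A_33_P3412613, chr12:98942332-98942391) read 242.9, 215.4 and 253.6. All TMPO values lay near NC, with log2 fold changes of -0.20 and -0.13 for the first and -0.15 and -0.27 for the other. The variant 2 probe differed from the variant 1 probe by 0.05 ± 0.29 for SMARCA4-KD1 and -0.14 ± 0.29 for SMARCA4-KD2. Whether the variants differed was not tested.

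**Figure D2:**
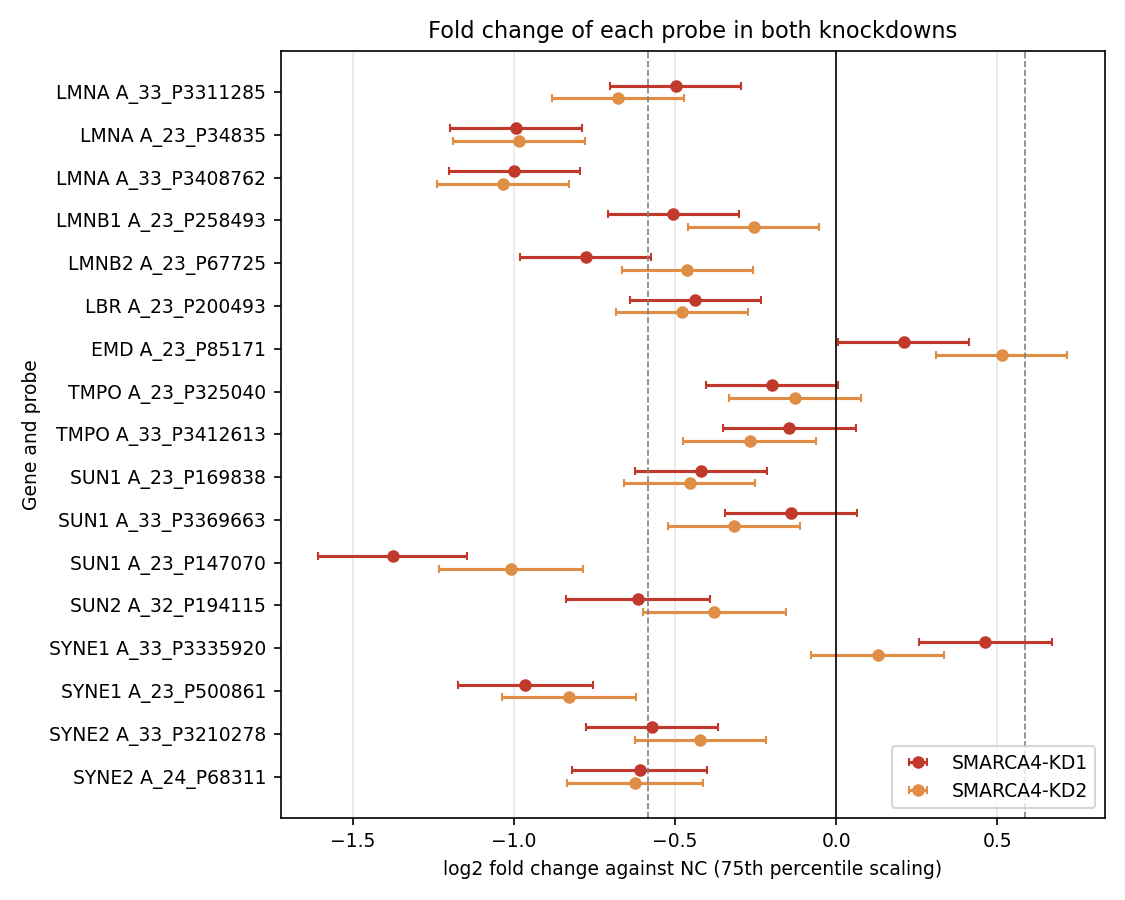
Log2 fold change against NC of each detected probe in SMARCA4-KD1 (red) and SMARCA4-KD2 (orange), with bars for the error from the extraction software's signal errors and dashed lines at 1.5-fold. Shared LMNA probes lie near -1.0 in both, EMD lies to the right of 0, and probes of SUN1 and of SYNE1 lie apart from each other.

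The SUN proteins span the inner nuclear membrane and bind lamins on its inner face. SUN1 had 3 probes. A_23_P169838 (chr7:914243-914302), at the 3′ end of the messenger, had a signal of 6228 for SMARCA4-KD1, 5863 for SMARCA4-KD2 and 7857 for NC, with log2 fold changes of -0.42 and -0.45. A_33_P3369663 (chr7:881707-881766), toward the 5′ end, read 468.9, 400.8 and 487.9, with -0.14 and -0.32. Both were lower than NC by less than 1.5-fold. The 5′ probe is printed since its value was the smallest change among the SUN1 probes.
SUN1 A_33_P3369663: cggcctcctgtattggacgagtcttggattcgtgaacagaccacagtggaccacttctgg
The remaining SUN1 probe, A_23_P147070 (chr7:889733-889792), lies between them on the chromosome and lists an Ensembl transcript with no RefSeq messenger. It was dim, at 52.5 for SMARCA4-KD1, 65.4 for SMARCA4-KD2 and 128.7 for NC, with log2 fold changes of -1.38 ± 0.23 and -1.01 ± 0.22, 2.60-fold and 2.01-fold lower. With another background correction and an offset of 50 added to all signals (normexp, both changed at once) these were -0.70 and -0.53, the last short of 1.5-fold. The 3′ probe exceeded it by 0.96 ± 0.31 and 0.55 ± 0.30, but by 0.33 and 0.14 under normexp, a comparison added after the data were seen. The range over the SUN1 probes (1.24 and 0.69) was matched or passed by 3.36% and 14.0% of genes with several probes, and under normexp (0.65 and 0.31) by 10.6% and 34.6%.

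SUN2 had 1 dim probe (A_32_P194115, chr22:39131960-39132019), at 65.5 for SMARCA4-KD1, 74.5 for SMARCA4-KD2 and 94.7 for NC. Its log2 fold changes were -0.62 ± 0.22 and -0.38 ± 0.22, 1.53-fold and 1.30-fold lower. SMARCA4-KD1 was past 1.5-fold by a small margin, which it lost with normexp (-0.44) and with the intensity trend removed (-0.57).

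Nesprins span the outer nuclear membrane with a KASH domain at the C-terminal end, and the long forms bind actin. SYNE2 encodes nesprin-2, and it is the member gene that the study put on its own list of target genes common to SMARCA4 and PRMT1. That list was made partly from these arrays and also required overlap with published SMARCA4 binding data (ChIP-Seq). The direction of SYNE2 here is thus not independent of that choice. The SYNE2 probe at the 3′ end of the long messenger (A_33_P3210278, chr14:64693075-64693134) read 1467 for SMARCA4-KD1, 1569.8 for SMARCA4-KD2 and 2055 for NC, with log2 fold changes of -0.57 and -0.42. That is 1.49-fold and 1.34-fold lower, short of 1.5-fold. A_24_P68311, near the 5′ end, is split on the genome over chr14:64416714-64421485 and so spans an exon junction, and it can bind only messengers that include the N-terminal part.
SYNE2 A_24_P68311: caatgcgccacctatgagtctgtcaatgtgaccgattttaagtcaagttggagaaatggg
It read 119.9, 114.6 and 172.7, with log2 fold changes of -0.61 and -0.62, 1.53-fold and 1.54-fold lower. The SYNE2 folds that the study tabulated lie nearer to those of this dim 5′ probe than to those of the 3′ probe. Under normexp the 5′ probe gave -0.51 and -0.50, short of 1.5-fold. The 3′ probe differed from the 5′ probe by 0.04 ± 0.29 and 0.20 ± 0.29. Whether the ends of the messenger differed was not tested.

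SYNE1 encodes nesprin-1 and had 4 probes. A_33_P3335910 and A_33_P3335915, in the 5′ part of the gene (chr6:152757076-152757134 and chr6:152748771-152748830), were not well above background on any array, with signals between 3.33 and 3.65 where the lowest signal well above background was 16.2 to 17.7, so no fold is given. The detected probes both lie at the 3′ end of the long messenger, 476 bases apart. A_33_P3335920 (chr6:152443528-152443587) had a signal of 299.5 for SMARCA4-KD1, 229.3 for SMARCA4-KD2 and 205.0 for NC, and A_23_P500861 (chr6:152443052-152443111) had 129.6, 137.3 and 238.4. NC was therefore lowest on the first and highest on the other.

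The log2 fold changes of SYNE1 were 0.46 and 0.13 for A_33_P3335920 and -0.96 and -0.83 for A_23_P500861, the latter 1.95-fold and 1.78-fold lower. They lay 1.43 ± 0.29 apart in SMARCA4-KD1 and 0.96 ± 0.29 apart in SMARCA4-KD2, and under normexp, again compared after the data were seen, 0.97 and 0.67 apart. Of the genes with several probes, 2.13% (SMARCA4-KD1) and 5.94% (SMARCA4-KD2) had a range at least as wide, and 2.99% and 7.89% under normexp. The pair differs in base composition, with 53.3% G or C in A_33_P3335920 and 35.0% in A_23_P500861, and both list the same RefSeq messengers. No direction is given for SYNE1 as a gene.

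Between the knockdown arrays, 0 of the 17 probes lay 1.5-fold or more apart, against 6.33% of the 29335 probes. Differences ran from -0.37 (SUN1 A_23_P147070) to 0.33 (SYNE1 A_33_P3335920) on the log2 scale, SMARCA4-KD1 minus SMARCA4-KD2. Among the 25282 probes well above background on all arrays, the bright ones (a mean signal of 2000 or more) had the central 95% of such differences between -0.33 and 0.29, those from 200 to 2000 between -0.37 and 0.40, and those under 200 between -0.65 and 0.59. All 17 probes were within the range of their own brightness. Differences between knockdown and NC were wider over these 25282 probes, with an SD of 0.52 and 0.47 against 0.26 between the knockdowns, and this measures slide and knockdown together.

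Further genes of the nuclear envelope were read by list, each gene by its brightest probe, over 22621 genes. Of 10 detected genes among the other LINC genes, 1 was at least 1.5-fold lower and 2 higher in SMARCA4-KD1, and 1 lower and 1 higher in SMARCA4-KD2, where all genes gave 12.2% lower and 11.2% higher in SMARCA4-KD1 and 9.77% lower and 10.1% higher in SMARCA4-KD2. Their medians were 0.21 and 0.15, beside 0.00 and 0.02 over all genes. FHOD1, a formin that ties nesprin-2 to actin, read 1469, 1369.8 and 863.2 (log2 fold changes 0.68 and 0.63). SYNE3, which encodes nesprin-3, was dim at 16.6, 21.0 and 30.9. It was at least 1.94-fold lower in SMARCA4-KD1, where its signal was at background. In SMARCA4-KD2 it was 1.51-fold lower (-0.59 ± 0.35). SYNE3 was thus low in both knockdowns near the limit of detection, and FHOD1 was high.

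Of 12 detected LEM domain and other inner membrane genes, 3 were lower and 1 higher in each knockdown, with medians of -0.08 and -0.20. Of all genes, 12.2% were lower and 11.2% higher in SMARCA4-KD1, and 9.77% lower and 10.1% higher in SMARCA4-KD2. LEMD2, a LEM domain protein that takes part in resealing the envelope, had a signal of 1313 for SMARCA4-KD1, 1303 for SMARCA4-KD2 and 2011 for NC (-0.70 and -0.66). LEMD1 read 514.5, 550.4 and 1162 (-1.26 and -1.11), and IFFO1, an intermediate filament family member of the nuclear interior, was dim at 46.1, 53.7 and 91.0 (-1.07 and -0.79, 1 of 2 probes). TM7SF2, a sterol reductase related to LBR, was higher at 996.6, 855.0 and 408.1 (1.20 and 1.03), opposite to LBR. Of the ANKLE2 probes, 1 of 2 was past 1.5-fold in both knockdowns (-0.59 and -0.61).

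Prelamin A matures by farnesylation, carboxyl methylation and cleavage by ZMPSTE24. Of 6 genes of this list, 0 were lower and 1 higher in each knockdown, with medians of 0.03 and -0.04. All genes gave 12.2% lower and 11.2% higher in SMARCA4-KD1, and 9.77% lower and 10.1% higher in SMARCA4-KD2. ZMPSTE24 itself had a signal of 13509 for SMARCA4-KD1, 12558 for SMARCA4-KD2 and 7897.5 for NC, with log2 fold changes of 0.69 and 0.64, the opposite direction to its substrate's messenger. The methyltransferase ICMT lay at -0.27 and -0.22 on its brightest probe, while its dim probe, at 19.7, 25.8 and 41.0, gave -1.14 and -0.70.

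Of 29 nuclear pore genes, 1 was lower and 3 higher in SMARCA4-KD1 and 1 lower and 2 higher in SMARCA4-KD2, with medians of 0.10 in both. NUP54, of the central channel, was the lower one, at 1579 for SMARCA4-KD1, 1568 for SMARCA4-KD2 and 3182 for NC (-1.10 and -1.05). AHCTF1, which seeds pores on chromatin after mitosis, was higher at 2357, 1950.3 and 1134 (0.97 and 0.75, 1 of 2 probes), as was SEH1L (0.70 and 0.75, 1 of 2 probes). Probes other than the brightest were past 1.5-fold on the higher side for NUP98 (1.05 and 0.76, 1 of 2 probes) and NUP133 (0.88 and 0.85, 2 of 4 probes). All genes gave 12.2% lower and 11.2% higher in SMARCA4-KD1, and 9.77% lower and 10.1% higher in SMARCA4-KD2. In both knockdowns, 8 pore genes lay below NC and 15 above it by brightest probe. Of all 22621 genes, 8880 lay below and 9308 above in both. Whether the pore list differed from all genes was not tested.

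Envelope breakdown and resealing had 5 of 18 genes lower and 1 higher in SMARCA4-KD1 and 5 lower and 0 higher in SMARCA4-KD2, with medians of -0.03 and -0.02. Over all genes, 12.2% were lower and 11.2% higher in SMARCA4-KD1, and 9.77% lower and 10.1% higher in SMARCA4-KD2. CDK1, the mitotic kinase that phosphorylates lamins, had a signal of 19.8, 15.5 and 52.3 on a dim probe (2.80-fold and at least 3.29-fold lower, the signal of the latter being at background) and of 6227, 6066 and 10291 on its brightest (-0.81 and -0.80). CCNB1, its cyclin, lay at -0.82 and -0.69 (1 of 2 probes), and the ESCRT-III subunit CHMP4B at -0.90 and -0.59. LEMD2 stands on this list too.

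Proliferation genes had 6 of 12 members lower and 0 higher in each knockdown, with medians of -0.61 and -0.56. The shares over all genes were 12.2% lower and 11.2% higher in SMARCA4-KD1, and 9.77% lower and 10.1% higher in SMARCA4-KD2. CDK1 and CCNB1 are among the lower members of the list in each knockdown and are the same genes as on the envelope breakdown list. MKI67 was past 1.5-fold on 3 of 3 probes, with 822.7 for SMARCA4-KD1, 779.9 for SMARCA4-KD2 and 1766 for NC on the one farthest from NC (-1.19 and -1.21). TOP2A (-0.71 and -0.70) and MCM5 (-0.68 and -0.66) were lower as well. RRM2, picked out after its values were seen, was above NC by less than 1.5-fold (0.51 and 0.41). The part of proliferation in the values of the member genes was not tested.

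Of 13 cytoskeletal partners, 4 were lower and 1 higher in SMARCA4-KD1 and 3 lower and 1 higher in SMARCA4-KD2, with medians of -0.25 and -0.26. Among all genes, 12.2% were lower and 11.2% higher in SMARCA4-KD1, and 9.77% lower and 10.1% higher in SMARCA4-KD2. VIM, the intermediate filament protein vimentin, had a signal of 315.6, 283.8 and 826.0, with log2 fold changes of -1.47 and -1.57, the lowest of the list. PLEC, the linker plectin that joins nesprin-3 to intermediate filaments, lay at -0.87 and -0.76 (1 of 2 probes), and FLNA, the actin crosslinker filamin A, at -0.69 and -0.84 (1 of 2 probes). For DST, a spectraplakin, 1 of 6 probes was past 1.5-fold in both (-0.84 and -0.80). FHOD1 was the higher gene here as well.

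Peripheral chromatin partners had 2 of 13 genes lower and 0 higher in each knockdown, with medians of -0.09 and -0.14. The lower ones were the histone H3 methyltransferases EHMT2, at 428.7 for SMARCA4-KD1, 482.4 for SMARCA4-KD2 and 726.6 for NC (-0.85 and -0.62), and SUV39H1 (-0.60 and -0.81, 1 of 2 probes). Of 9 detected senescence-associated genes, 3 were lower and 1 higher in SMARCA4-KD1 and 2 lower and 2 higher in SMARCA4-KD2, with medians of 0.18 and 0.15. Beside both lists, all genes gave 12.2% lower and 11.2% higher in SMARCA4-KD1, and 9.77% lower and 10.1% higher in SMARCA4-KD2. CDKN1A, the cell cycle inhibitor p21, read 1409.5, 1079 and 636.1 (1.06 and 0.73), and HMGB2 lay at -1.24 and -1.07. All 10 housekeeping genes lay within 1.5-fold of NC, with medians of 0.06 and 0.13.

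**Figure D3:**
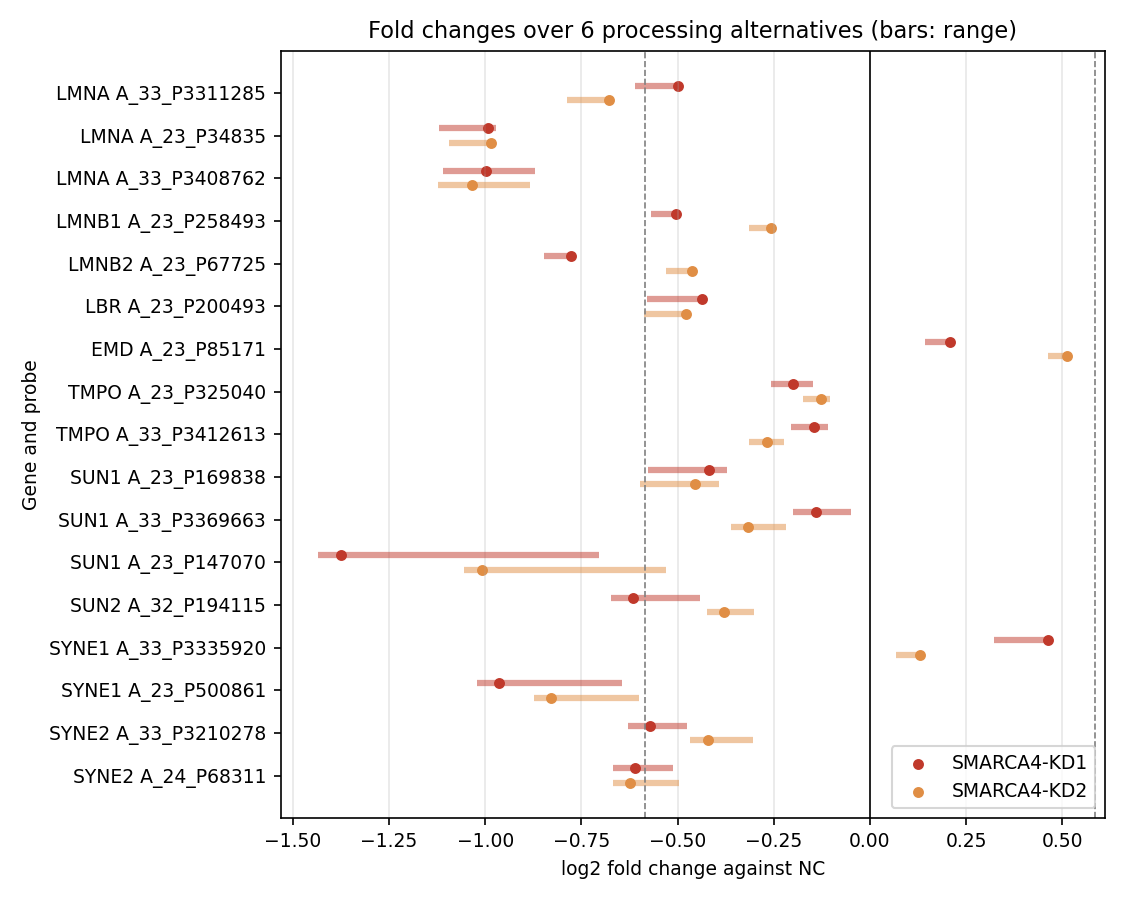
Log2 fold change against NC of each detected probe as reported (points) with its range over 6 processing alternatives (bars), for SMARCA4-KD1 (red) and SMARCA4-KD2 (orange), and dashed lines at 1.5-fold. No bar crosses 0, and the longest, of SUN1 A_23_P147070 in SMARCA4-KD1, runs from -1.43 to -0.70.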

How the data were processed

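HCT116 cells were measured on 3 Agilent SurePrint G3 Human v3 arrays. The authors extracted each spot's intensity with Agilent Feature Extraction 10.7.1.1 (from the submitters' processing notes), which per the file headers subtracted background by the software's surface fit and removed spatial trends, with no normalization between arrays. The 0 or 1 flags of the deposited files were used as given. The authors' series-level table of intensity was within 0.1% of these values for all 19 member probes. Control and outlier-flagged spots were left out, and repeated spots were averaged on the log2 scale, leaving 58171 probes. The 75th percentile over all probes was subtracted. A value at background that lay under the array's lowest well detected value was raised to it, so its fold is a limit. Folds were described at 1.5-fold, the study's threshold, with no test. The error of a fold combines the software's signal errors of both arrays and covers no difference between cultures. All 10 symbols matched the RefSeq table (GRCh38.p14), used for names only; positions are hg19 from the array files. Named list genes are those with a probe at least 1.5-fold from NC the same way in both knockdowns, at most 5 per direction, by the probe with the largest smaller change. Some items of the marker and gene lists and some sequences are not reported here. Members and lists were chosen with earlier results of these data known. Only the scaling and the counting at 1.5-fold were tested on simulated data, made from probes well above background. Python 3.11.15, numpy 2.4.6, pandas 2.3.3, statsmodels 0.14.6, matplotlib 3.10.9, R 4.3.3 and limma 3.58.1 (normexp with offset 50, quantile) were used.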

Additional observations from a re-analysis of the deposited data

How the results depend on the processing

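Over 6 alternatives (normexp with an offset of 50, which changes background correction and offset together, quantile normalization, a percentile taken from probes detected on all arrays, the series-level table, no floor, and the intensity trend removed), 204 fold changes of member probes were recomputed. In these, 0 took another sign and 4 moved by more than the extraction error, all under normexp: SUN1 A_23_P147070 (-0.70 and -0.53) and SYNE1 A_23_P500861 (-0.64 and -0.60). The cause was not tested. Probes at least 1.5-fold lower numbered 5 and 4 under normexp and 9 and 7 under quantile normalization, in SMARCA4-KD1 and SMARCA4-KD2. LMNA A_33_P3311285 and SYNE2 A_33_P3210278 in SMARCA4-KD1, and LBR and SUN1 A_23_P169838 in SMARCA4-KD2, passed 1.5-fold under quantile normalization, the trend removed or the other percentile. At 2-fold, 1 and 2 remained by construction, and with the brightest probe per gene, which leaves 10 probes, 2 and 1. Differences between probes were recomputed as well, chosen after seeing the data, and 3 moved by more than their error, all under normexp: SUN1 A_23_P169838 minus A_23_P147070 in both knockdowns and SYNE1 A_33_P3335920 minus A_23_P500861 in SMARCA4-KD1. Medians ranged from -0.59 to -0.47 in SMARCA4-KD1 and from -0.53 to -0.39 in SMARCA4-KD2. Without a filter the median of all probes was -0.15 in both knockdowns, since values at the floor are lower there than in NC. No array could be left out with 1 per condition. No paired analysis was possible because there was 1 array per condition and no test. Probes with a mean signal under 200, namely SUN2, SUN1 A_23_P147070, SYNE1 A_23_P500861 and the 5′ SYNE2 probe, are limited by signal over background.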

Other observations

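Genes named after members were read as well, chosen after their values were seen. TMPO-AS1, transcribed opposite to TMPO, was dim on 1 probe at 22.2 for SMARCA4-KD1, 24.6 for SMARCA4-KD2 and 18.6 for NC. Its log2 fold changes were 0.17 ± 0.42 and 0.37 ± 0.40, and no direction is read from them. SYNE1-AS1 was not well above background on any array. LMNTD2, a lamin tail domain gene, read 509.4, 532.7 and 587.1 (-0.29 and -0.17).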
